A study of Rattus norvegicus with 12 samples.

Results

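The NMDA receptor subunits form a family of 7 rat genes, Grin1, Grin2a, Grin2b, Grin2c, Grin2d, Grin3a and Grin3b, and their transcripts were followed in primary hippocampal cultures whose glutamate receptors had been blocked. Members were taken by name: every array probe whose RefSeq transcript carries one of these symbols was used, which gave 9 of the 30367 probes, and the brightest probe of a gene supplied its main value. Grin1 and Grin3a had 2 probes each and the other genes had 1. All 7 genes passed the filter on dim probes and are among the 21207 genes or unnamed targets tested. Each of their 9 probes was well above background on all 12 arrays, none was saturated and none carried an outlier flag.

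Cultures came from Wistar rats at embryonic day 18 and were used after 14 to 15 days in vitro, so each is a mixed primary culture of embryonic origin. The blocked cultures received 50 µM GYKI-52466, which closes AMPA receptors, together with 10 µM MK-801, which enters and plugs the open NMDA receptor channel, for 9 h or for 26 h. The untreated cultures were kept without either drug and collected at the same 2 times. Each of the 4 groups had 3 arrays, one for each of 3 independent cultures per the labels, and all cultures were grown with glutamate in the first week. The question was how transcription changes while excitatory synaptic transmission is shut off, a state under which neurons are known to scale up their synapses.

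NMDA receptors are tetrameric cation channels. Those of GluN1 and GluN2 subunits open only when glutamate and a co-agonist, glycine or D-serine, are bound. For these the membrane must also be depolarised enough to expel magnesium from the pore. Every receptor contains GluN1, the product of Grin1, which binds the co-agonist. Its partners are GluN2 subunits (Grin2a to Grin2d), which bind glutamate and set channel kinetics, or GluN3 subunits (Grin3a, Grin3b), which bind glycine and lower calcium entry. In rodent hippocampus GluN2B predominates early and GluN2A is added during postnatal maturation, a switch that neuronal activity is known to influence.

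Promoter windows are shown for Grin1, the member with the largest change at a single time, and Grin2c, the member with the largest change averaged over both times. Each is the 250 bases before the annotated start on the RefSeq assembly GRCr8, printed 5′ to 3′ along the gene's own strand, which is the minus strand for both. Capitals mark TGACG, the core of the cAMP response element through which CREB acts, or CGTCA, its reverse complement.
Grin1, chr3:28528755-28529004: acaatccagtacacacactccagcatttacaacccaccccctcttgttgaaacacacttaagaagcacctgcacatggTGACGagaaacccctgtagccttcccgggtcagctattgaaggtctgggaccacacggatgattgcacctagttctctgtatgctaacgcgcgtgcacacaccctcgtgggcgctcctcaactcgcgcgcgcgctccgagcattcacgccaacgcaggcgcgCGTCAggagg
Grin2c, chr10:101005139-101005388: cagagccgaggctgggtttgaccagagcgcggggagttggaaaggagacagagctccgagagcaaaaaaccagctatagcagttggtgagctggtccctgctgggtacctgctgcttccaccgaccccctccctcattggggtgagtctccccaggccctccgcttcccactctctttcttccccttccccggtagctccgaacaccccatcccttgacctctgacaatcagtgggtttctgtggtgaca
The Grin1 window holds the core 2 times, beginning 172 and 10 bases before the start, and the Grin2c window holds none. Neither window holds GGGCGG, the GC box of Sp factors, on either strand. Among 27457 rat promoter windows of the same length, 18.8% hold TGACG on either strand, 4.16% hold it 2 or more times and 32.1% hold a GC box. The windows of Grin2d and Grin3a hold neither motif. For Grin2a, Grin2b and Grin3b no promoter sequence was at hand, so their windows were not searched.

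Levels are log2 processed signal minus the log2 75th percentile of the same array, so that 0 is the 75th percentile of the array's non-control spots. A level was set against other levels of the same probe only, since probes differ in how well they hybridise. Between 77.6% and 86.8% of spots per array were well above background. The 5 measured of 6 neuronal markers, among them Rbfox3, Tubb3 and Map2, were so on all 12 arrays, as were all 8 astrocyte and all 8 oligodendrocyte-lineage markers. The arrays lay on 6 slides that were scanned on 2 days, and the days crossed the groups. Day 1 held blocked 26 h and untreated 9 h cultures, and day 2 held blocked 9 h and untreated 26 h cultures. The blockade effect averaged over both times is therefore balanced over days and slides. An effect at a single time compares arrays of different days, and the difference of the effect between times is the same contrast as the scan day, so these cannot be told apart. The 9 h cultures were always at position 1 of a slide and the 26 h cultures at position 3, so culture time and slide position cannot be told apart either. Of 10 positive-control spike-in probes, 5 were saturated on some arrays and 2 were not well above background on some. The other 3, measured on all arrays, were higher on day 2 than on day 1 by 4.55 to 4.92 log2 units after the same scaling, with no overlap between days. The drugs' action was read from 6 activity-dependent genes, and all 6 fell in blocked cultures over both times, with log2 changes of -2.59 for Bdnf, -2.80 for Arc, -4.58 for Npas4, -1.75 for Fos, -2.56 for Nr4a1 and -1.05 for Egr1 (limma, adjusted p at most 0.0224). Npas4 was well above background on only 9 of the 12 arrays, and its value after normexp background correction was -2.96. The Egr1 call was lost without blocked 9 h replicate 1 or 2, blocked 26 h replicate 1 or 2, or untreated 26 h replicate 2, with adjusted p up to 0.0655.

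Averaged over both times, no NMDA receptor subunit passed an adjusted p of 0.05 in limma's moderated test across all genes. The background for that count was 4.45% of the 21207 tested, with 2.24% higher and 2.21% lower. At an unadjusted p under 0.05, which 16.6% of all genes tested met, 3 of the 7 members were counted: Grin2a and Grin3b with higher and Grin2c with lower values in blocked cultures. With the replicate number of the culture as a block, Grin2a rose and Grin2c fell past the threshold (adjusted p 0.0405 and 0.0196), against a background of 13.2% called in that fit. With the slide as a block the background was 10.9%, and Grin2c passed (adjusted p 0.0269) while Grin2a did not (adjusted p 0.0605). The changes of Grin1, Grin2b, Grin2d and Grin3a averaged over both times lay between 0.01 and 0.13 log2 units. The median over all genes tested was -0.02.

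**Figure D1:**
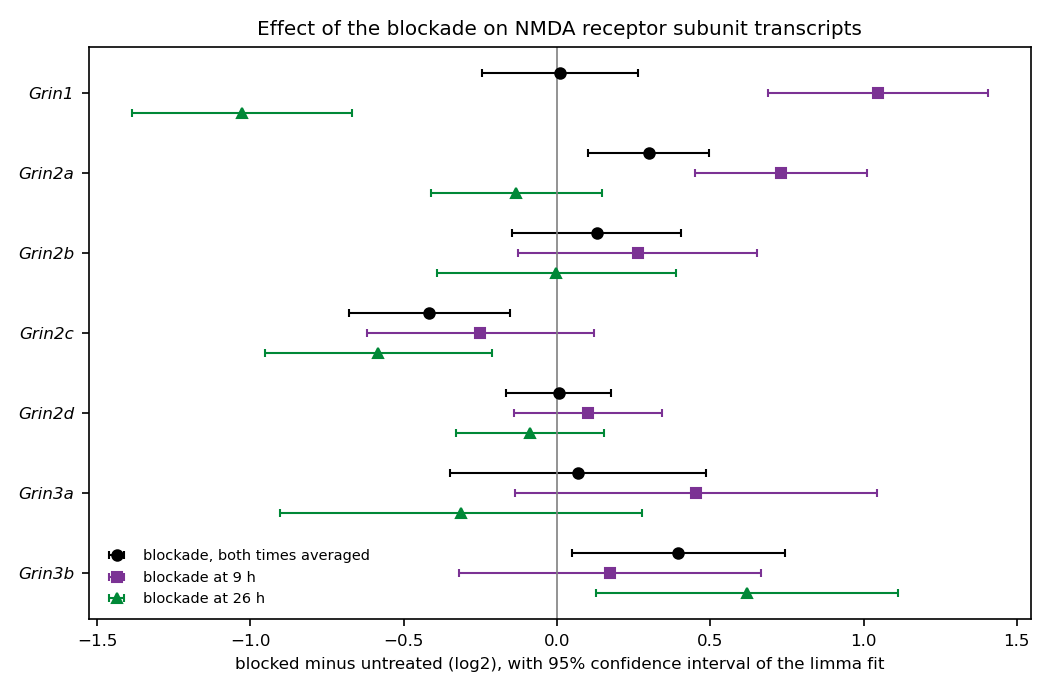
Change of each NMDA receptor subunit transcript in blocked relative to untreated cultures (x axis, log2 units), averaged over both times (black circles), at 9 h (purple squares) and at 26 h (green triangles), with 95% confidence intervals from the limma fit over 12 arrays. Grin1 lies near 1.05 at 9 h and -1.03 at 26 h with an average of 0.01, while Grin2c lies below 0 in all 3 estimates.

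Grin1, the obligatory subunit, split by scan day. That split cannot be told apart from a blockade effect that differs between 9 h and 26 h. The main probe read -2.15, -2.12 and -2.0 in blocked 9 h cultures, against -3.34, -2.81 and -3.25 in untreated 9 h cultures. At 26 h it read -3.16, -3.67 and -3.57 in blocked cultures, against -2.40, -2.53 and -2.39 in untreated cultures. The 6 arrays of day 2 were all above the 6 arrays of day 1, a pattern found in 6.83% of genes measured on all arrays. From the highest to the lowest group mean, the order was blocked 9 h, untreated 26 h, untreated 9 h and blocked 26 h, and only the last 2 of these overlapped. Grin1 rose by 1.05 ± 0.16 log2 units (SE, n = 3 each) in blocked cultures at 9 h, limma adjusted p 0.00229, and fell by 1.03 ± 0.16 at 26 h, limma adjusted p 0.00377. Within a scan day the differences were smaller and opposite in sign: blocked 26 h minus untreated 9 h cultures came to -0.33 on day 1, and blocked 9 h minus untreated 26 h cultures came to 0.35 on day 2. Day 2 exceeded day 1 by 1.04. The balanced average over both times was 0.01 ± 0.11 log2 units (limma SE), with a 95% confidence interval of -0.25 to 0.26 and an adjusted p of 0.987. Without replicate 3 of every group, neither single-time call passed (adjusted p 0.0548 at 9 h and 0.0841 at 26 h).

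The second Grin1 probe gave a further reading of the same transcript. It read -3.50, -3.48 and -2.98 in blocked 9 h cultures, against -4.84, -4.02 and -4.0 in untreated 9 h cultures. Its 26 h values were -4.16, -4.15 and -4.23 in blocked cultures, against -3.58, -3.62 and -3.40 in untreated cultures. Day 2 arrays were again all above day 1 arrays. In the limma fit over all probes, chosen after the data had been seen, its change was 0.97 ± 0.22 (SE) at 9 h with adjusted p 0.0123 and -0.65 ± 0.22 at 26 h with adjusted p 0.0705. Its average over both times was 0.16 ± 0.15 with adjusted p 0.714, so the probes had the same order of days and the second did not pass at 26 h.

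**Figure D2:**
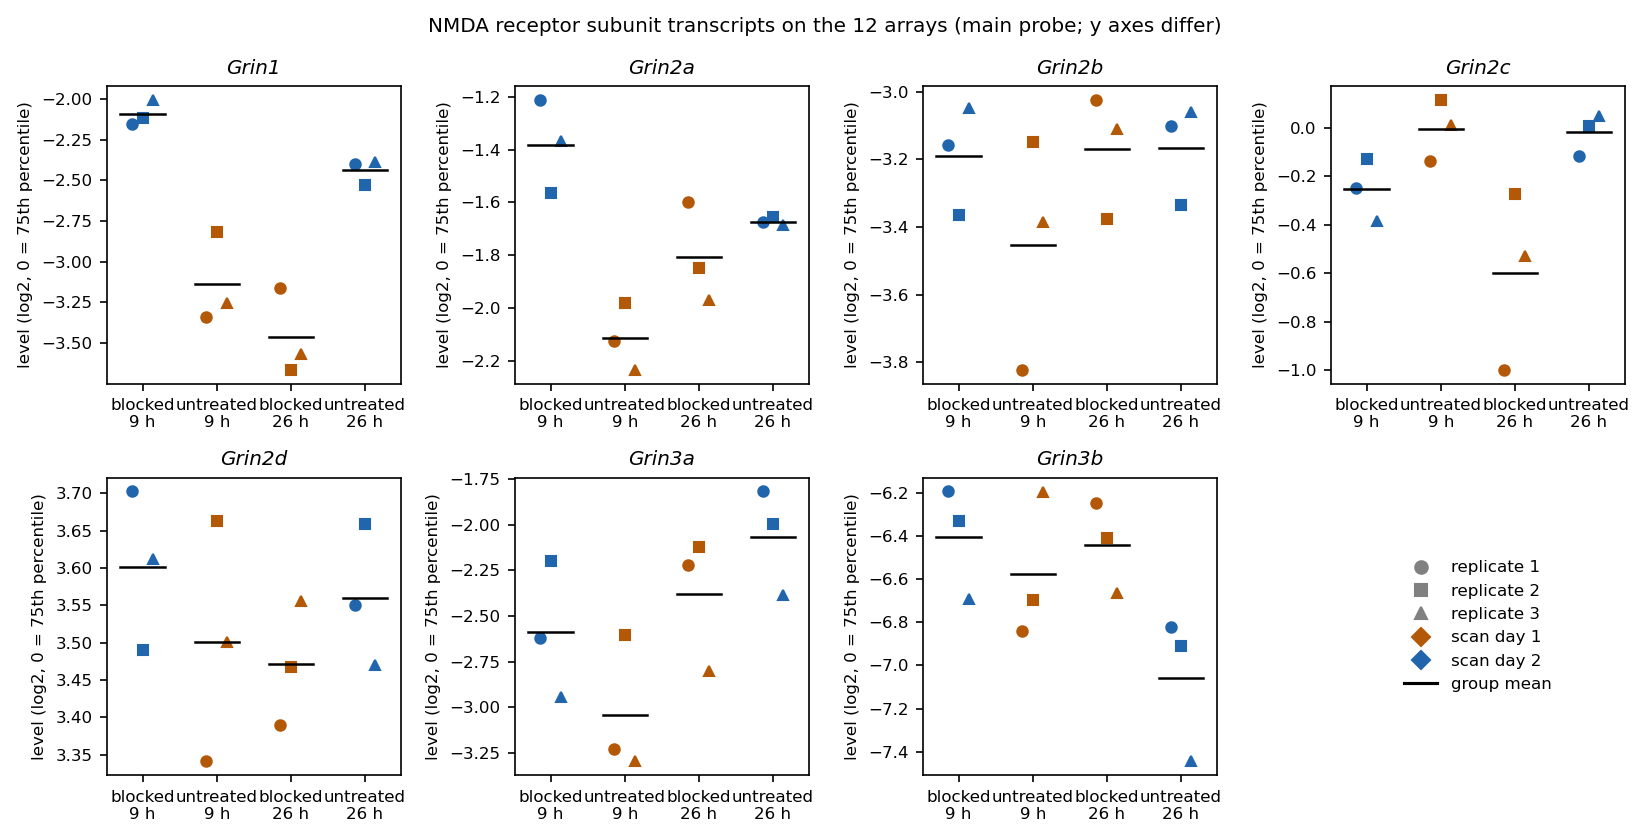
Level of each NMDA receptor subunit transcript (main probe, log2, 0 = the array's 75th percentile) in every array of the 4 groups, with blocked left of untreated at each time, a bar at the group mean, colour for scan day and marker shape for replicate number (3 arrays per group, y axes differ between panels). Grin1 separates by day, Grin2a is highest in blocked 9 h cultures at a mean of -1.38, and Grin2c is lowest in blocked 26 h cultures at a mean of -0.60.

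Grin2a encodes the GluN2A subunit that joins hippocampal synapses as they mature. Its levels were -1.21, -1.57 and -1.37 in blocked 9 h cultures, against -2.12, -1.98 and -2.23 in untreated 9 h cultures. At 26 h they were -1.60, -1.85 and -1.97 in blocked cultures, against -1.67, -1.66 and -1.69 in untreated cultures. The 9 h groups did not overlap, and the narrow untreated 26 h group lay inside the span of the blocked 26 h group. The order of group means was blocked 9 h, untreated 26 h, blocked 26 h and untreated 9 h, and the middle 2 overlapped. Grin2a rose at 9 h by 0.73 ± 0.13 log2 units (SE, n = 3 each; 1.66-fold), limma adjusted p 0.00359, a call lost without replicate 3 of every group (adjusted p 0.0613). The 26 h change was -0.13 ± 0.13 with adjusted p 0.523.

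Within scan days, which hold the day constant, the blocked arrays had the higher Grin2a level on both days, by 0.31 on day 1 (blocked 26 h minus untreated 9 h) and by 0.29 on day 2 (blocked 9 h minus untreated 26 h). Each slide carried 1 blocked and 1 untreated array of the same replicate number. The within-slide differences were 0.53, 0.13 and 0.26 for replicates 1, 2 and 3 on day 1, and 0.46, 0.09 and 0.32 for the same replicates on day 2. The blocked array was thus higher on 6 of 6 slides, as it was for 5.47% of genes with values on all arrays. Replicate 1 showed the widest gap on both days and replicate 2 the narrowest. The balanced average was 0.30 ± 0.09 (SE; 1.23-fold; 95% confidence interval 0.10 to 0.50), limma adjusted p 0.102.

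Among 5 measured transcripts of excitatory neurons, 3 were higher in blocked cultures averaged over both times: Neurod2 by 1.23, Neurod6 by 0.55 and Slc17a7, the vesicular glutamate transporter VGLUT1, by 0.52 log2 units (limma adjusted p at most 0.0147). At 26 h alone the changes were 0.66 for Neurod2 (adjusted p 0.0137), -0.09 for Neurod6 (adjusted p 0.696) and 0.09 for Slc17a7 (adjusted p 0.702). Without replicate 3 of every group the calls of Neurod6 and Slc17a7 were lost (adjusted p 0.0597 and 0.216). The summed linear level of the 5, in units of the array's 75th percentile, was 12.6 to 13.8 in blocked 9 h cultures, against 6.68 to 7.66 in untreated 9 h cultures. At 26 h it was 8.58 to 10.4 in blocked cultures, against 8.11 to 10.9 in untreated cultures. Fewer cells of a type and less RNA per cell cannot be told apart in these bulk samples, and the part of these markers in the Grin2a values was not tested.

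**Figure D3:**
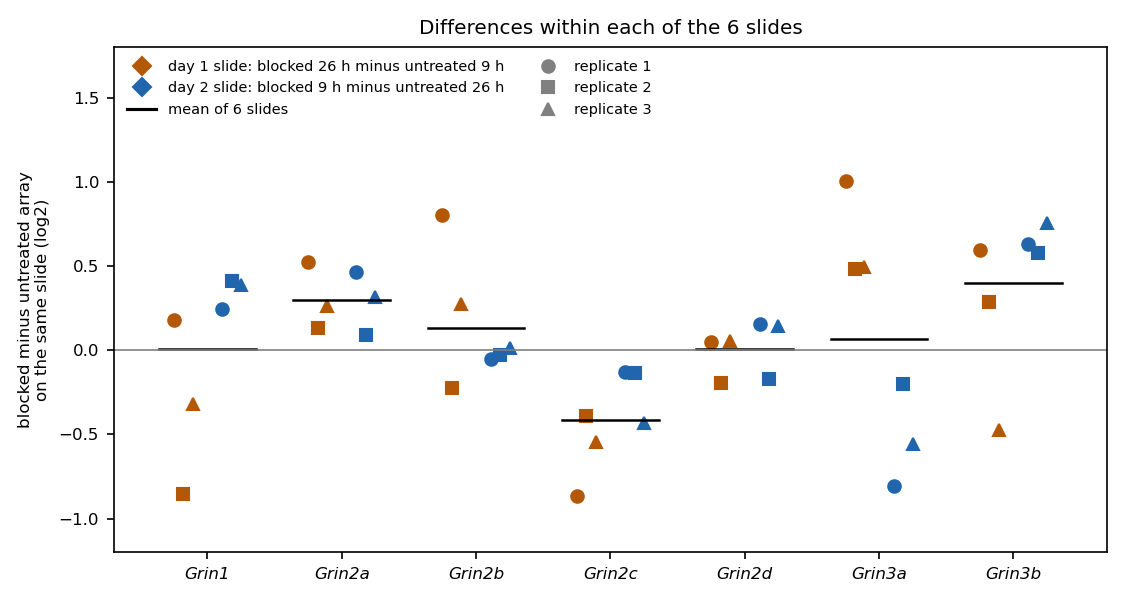
Blocked minus untreated array on the same slide (y axis, log2 units) for each subunit, with orange for the 3 slides of day 1 (blocked 26 h minus untreated 9 h), blue for the 3 slides of day 2 (blocked 9 h minus untreated 26 h), shape for replicate number and a bar at the mean of 6 slides. All 6 Grin2a points are above 0 (0.09 to 0.53), all 6 Grin2c points are below 0 (-0.86 to -0.13), and the Grin3a points are above 0 on day 1 and below 0 on day 2.

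Grin2b encodes GluN2B, the GluN2 subunit that predominates in young hippocampal neurons and the docking site of CaMKII. It read -3.16, -3.36 and -3.05 in blocked 9 h cultures, against -3.82, -3.15 and -3.39 in untreated 9 h cultures. The 26 h readings were -3.02, -3.38 and -3.11 in blocked cultures, against -3.10, -3.34 and -3.06 in untreated cultures. All neighbouring groups overlapped, and the blocked array was higher on 3 of 6 slides. The average over both times was 0.13 ± 0.12 log2 units (SE), limma adjusted p 0.708. Its 95% confidence interval, -0.15 to 0.41, holds changes as large as the one seen for Grin2a. No single-time value passed: 0.26 ± 0.18 at 9 h with adjusted p 0.338 and -0.003 ± 0.18 at 26 h with adjusted p 0.993.

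The Grin2a and Grin2b changes were also set against each other, since their balance is the one that shifts in development. The within-slide change of Grin2a exceeded that of Grin2b by 0.17 log2 units on average, above 0 on 4 of 6 slides, with a range of -0.27 to 0.52. The range spans 0, but it is not a test, so whether the changes of these subunits differ was not settled. Each replicate number appears on both days, so the 6 slides are not independent.

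Grin2c encodes GluN2C, which in rodents is best known from cerebellar granule cells and in mouse cortex is also transcribed in astrocytes. Levels were -0.25, -0.13 and -0.38 in blocked 9 h cultures, against -0.14, 0.12 and 0.01 in untreated 9 h cultures. At 26 h they were -1.0, -0.27 and -0.53 in blocked cultures, against -0.12, 0.01 and 0.05 in untreated cultures. The 26 h groups did not overlap. At 9 h the highest blocked array, replicate 2, was marginally above the lowest untreated array, replicate 1. Blocked 26 h replicate 1 had the lowest level of all 12 arrays.

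The Grin2c change had the same sign on every slide. On day 1 the within-slide differences were -0.86, -0.39 and -0.54 for replicates 1, 2 and 3, and on day 2 they were -0.13, -0.14 and -0.43. The blocked array was lower on 6 of 6 slides, as it was for 5.33% of genes with values on all arrays. The average over both times was -0.42 ± 0.12 log2 units (SE; 1.33-fold lower; 95% confidence interval -0.68 to -0.15), limma adjusted p 0.0849. Besides the fits with the replicate or the slide as a block, normexp background correction (-0.44, adjusted p 0.0485) and leaving out blocked 26 h replicate 2 (-0.50, adjusted p 0.0420) brought it past the threshold. At 9 h the change was -0.25 ± 0.17 with adjusted p 0.339.

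At 26 h Grin2c fell by 0.58 ± 0.17 log2 units (SE, n = 3 each; 1.5-fold), limma adjusted p 0.0399. The background at 26 h was 16.4% called, with 9.53% lower. That call was lost in 12 of 22 other settings. They include leaving out any 1 array other than untreated 9 h replicate 1, untreated 9 h replicate 3 or blocked 26 h replicate 2, with adjusted p up to 0.117, and the change without blocked 26 h replicate 1 was -0.38. With the replicate block the adjusted p was 0.0106, in a fit that called 31.9% of all genes. The difference of its effect between times was -0.33 ± 0.24 with adjusted p 0.331.

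Astrocyte markers were set beside Grin2c. Of 8 markers on the list, Aldoc was saturated on 12 arrays, Slc1a3 on 5 and Aqp4 on 3, and the other 5 (Gfap, Aldh1l1, Slc1a2, Gja1 and S100b) had unsaturated values on every array. None of these 5 passed the limma test in the average over both times, with or without the replicate block, and their median change was -0.16. All 8 markers had averaged changes below 0, from -0.31 for Slc1a3 to -0.04 for Aldh1l1, with a median of -0.18. None of the 8 passed in the main limma fit. With the replicate block Aqp4 was called lower (-0.21, adjusted p 0.0480), where 7.02% of all genes were lower. The summed level of the 5 unsaturated markers was 17.2 to 24.8 in blocked 9 h cultures, against 18.1 to 25.9 in untreated 9 h cultures. At 26 h it was 14.7 to 25.8 in blocked cultures, against 16.8 to 33.3 in untreated cultures. The sums overlapped at both times, and the part of these markers in the Grin2c values was not tested.

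Grin2d encodes GluN2D, a subunit with slow kinetics that in hippocampus is prominent in interneurons. It was steady across groups: 3.70, 3.49 and 3.61 in blocked 9 h cultures, against 3.34, 3.66 and 3.50 in untreated 9 h cultures. The 26 h levels were 3.39, 3.47 and 3.56 in blocked cultures, against 3.55, 3.66 and 3.47 in untreated cultures. All neighbouring groups overlapped. The average over both times was 0.01 ± 0.08 log2 units (SE), limma adjusted p 0.987, with a 95% confidence interval of -0.17 to 0.18, the narrowest of the 7. This probe was bright, and its median pixel of 26286 to 43722 stayed below the scanner's saturation level of 65288 to 65290.

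Grin3a encodes GluN3A, a subunit of immature synapses that restrains their maturation in rodents. The main probe read -2.62, -2.20 and -2.94 in blocked 9 h cultures, against -3.23, -2.61 and -3.30 in untreated 9 h cultures. At 26 h it read -2.22, -2.12 and -2.80 in blocked cultures, against -1.82, -2.0 and -2.39 in untreated cultures. Replicate 3 was the lowest in each of the 4 groups, and all neighbouring groups overlapped. The average over both times was 0.07 ± 0.19 log2 units (SE), limma adjusted p 0.920. The scan days had opposite signs, 0.66 on day 1 (blocked 26 h minus untreated 9 h) and -0.52 on day 2 (blocked 9 h minus untreated 26 h).

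Culture time was the comparison in which Grin3a had its largest balanced value. The 26 h cultures exceeded the 9 h cultures by 0.59 ± 0.19 log2 units (SE; 95% confidence interval 0.17 to 1.01), averaged over blocked and untreated, limma adjusted p 0.0671. With the replicate block it passed (SE 0.10, adjusted p 0.00375), and with the slide as a block it passed too (adjusted p 0.0124). Leaving out untreated 9 h replicate 2, blocked 9 h replicate 2 or blocked 26 h replicate 3 also brought it past the threshold (0.70, 0.69 and 0.70, adjusted p 0.0396, 0.0486 and 0.0449). The second probe gave 0.58 ± 0.19 with adjusted p 0.0761. Across all genes 12.6% passed in this comparison, with 4.87% higher at 26 h, 26.8% passed with the replicate block and 24.6% with the slide as a block.

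The Grin3a probes parted in the difference of the blockade effect between times. It was -0.77 ± 0.38 for the main probe (SE, limma adjusted p 0.155, and 0.0148 with the replicate block, which called 44.5% of all genes). For the second probe it was -0.09 ± 0.38 (adjusted p 0.889). The second probe read -3.29, -2.97 and -3.65 in blocked 9 h cultures, against -3.62, -2.88 and -3.65 in untreated 9 h cultures. Its 26 h values were -2.60, -2.54 and -3.18 in blocked cultures, against -2.46, -2.75 and -3.07 in untreated cultures, so blocked and untreated arrays overlapped at both times. At 9 h the main probe's change of 0.45 ± 0.27 missed the threshold (adjusted p 0.272) and passed with the replicate block (adjusted p 0.0367, 35.9% of all genes called), while the second probe's change was 0.08 ± 0.27 (adjusted p 0.883).

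**Figure D4:**
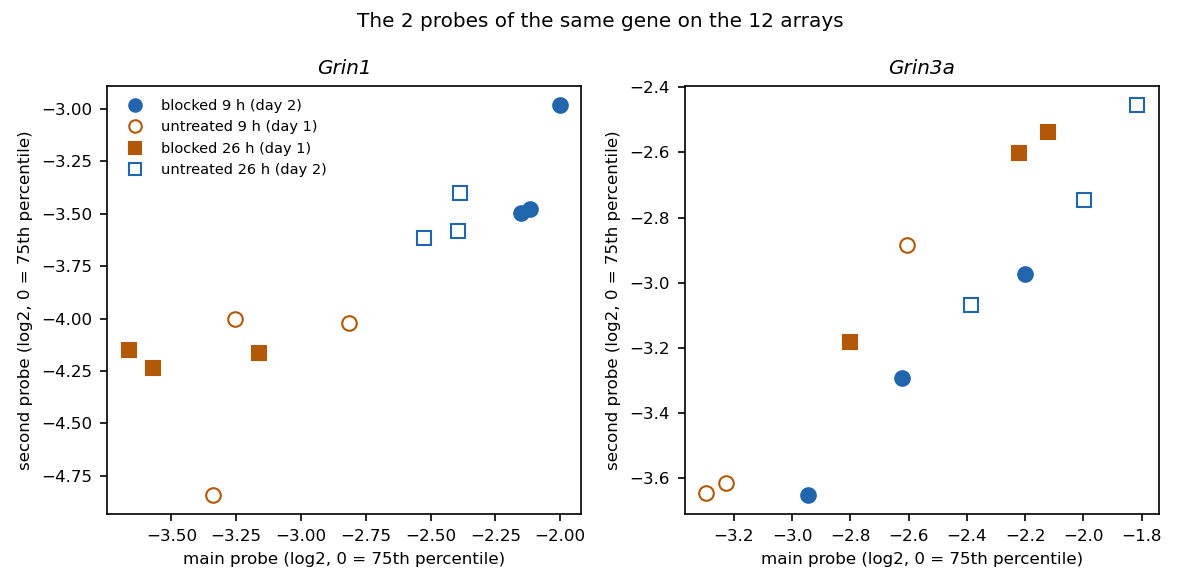
Level of the second probe (y axis, log2) against the main probe (x axis, log2) of Grin1 (left) and Grin3a (right) on the 12 arrays, 0 being the array's 75th percentile; filled symbols are blocked and open symbols untreated cultures, circles 9 h and squares 26 h, blue day 2 and orange day 1. For Grin1 both probes place all day 2 arrays above all day 1 arrays, and for Grin3a the second probe leaves blocked and untreated cultures overlapping at both times.

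Grin3b encodes GluN3B, known chiefly from motor neurons and brainstem. Its processed signal was low, 15.3 to 54.6 on the scanner's scale, though called well above background on every array. Levels were -6.19, -6.33 and -6.69 in blocked 9 h cultures, against -6.84, -6.70 and -6.20 in untreated 9 h cultures. At 26 h they were -6.25, -6.41 and -6.67 in blocked cultures, against -6.82, -6.91 and -7.45 in untreated cultures. The 26 h groups did not overlap and the 9 h groups did. The average over both times was 0.40 ± 0.16 log2 units (SE), limma adjusted p 0.226. The blocked array was higher on 5 of 6 slides, the exception being replicate 3 on day 1 at -0.47. The value fell to 0.06 after normexp background correction (adjusted p 0.814), which lifts dim signals by an offset of 50. At 26 h the change was 0.62 ± 0.22 with adjusted p 0.0850.

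Taking the times singly, 2 of 7 members passed at 9 h, both higher, where 21.1% of all genes passed and 11.4% were higher. At 26 h 2 of 7 passed, Grin1 and Grin2c, both lower, where 16.4% of all genes passed and 9.53% were lower. In the difference between times 2 of 7 passed, Grin1 at -2.07 ± 0.23 and Grin2a at -0.86 ± 0.18 (SE, limma adjusted p 3.13e-04 and 0.00539), where 28.7% of all genes passed and 15.9% were lower. Without replicate 3 of every group Grin2a missed the threshold there (-0.72, adjusted p 0.0908). For culture time none of 7 passed in limma, where 12.6% of all genes passed. In that fit 2 had an unadjusted p under 0.05 (Grin1 and Grin3a), as did 26.6% of all genes tested. With the replicate block 1 passed, against 26.8% of all genes. In the average over blocked and untreated cultures Grin1 was 0.34 ± 0.11 lower at 26 h with adjusted p 0.0815. It was 0.41 lower with adjusted p 0.0394 when blocked 26 h replicate 1 was left out. The second Grin1 probe gave -0.05 ± 0.15 (SE, limma adjusted p 0.891). From 9 h to 26 h the mean of the main probe fell from -2.09 to -3.47 in blocked cultures and rose from -3.14 to -2.44 in untreated cultures.

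The patterns of the members over the 12 arrays were set against 12063 other named genes. These arrays share scan days, slides and culture numbers, so the correlations are descriptions. Grin1 was most like Fbxl16 (Pearson r 0.98), Hcn2 (0.97), a hyperpolarisation-activated channel, and Septin5 (0.97), a septin of presynaptic terminals. Grin2a was most like Ptk2b (0.94), Macrod1 (0.94) and Rasgef1a (0.93). Ptk2b encodes Pyk2, a calcium-activated kinase upstream of Src at NMDA receptors. Grin2b was most like Stox2 (0.93), Trim44 (0.87) and Nrp1 (0.87). Grin2c was most like Cbs (0.95), which encodes cystathionine beta-synthase, Rps6ka6 (0.93) and Il12a (0.93). The genes most like Grin2d were Sema6c (0.95), Cxadr (0.87) and Cacna1a (0.85), the pore of P/Q-type calcium channels. Those most like Grin3a were Tatdn3 (0.97) and Lnx1 (0.95), and those most like Grin3b were Krt76 (0.87), Sod2 (0.84) and Rxfp3 (0.84). Between members, Grin1 and Grin2a were the most alike (r 0.75, n = 12 arrays) and Grin2c and Grin3b the least (r -0.41).

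Partners of the receptor were read from a list of 56 genes in 6 roles, of which 48 could be tested. Averaged over both times 4 rose and none fell in limma, against 2.24% higher and 2.21% lower over all genes, and the list's median change was 0.01. With the replicate block 6 were higher and 3 lower, against 6.2% and 7.02% of all genes. None of the 11 scaffold genes passed, PSD-95 (Dlg4) standing at 0.18 ± 0.11 (SE, adjusted p 0.486). Among 11 kinases and phosphatases 3 rose: Ptk2b, Ppp3ca, a catalytic subunit of calcineurin, and Dapk1, a death-associated kinase that binds GluN2B in mouse. Among 7 downstream genes 1 rose, Nos1, the neuronal nitric oxide synthase that PSD-95 tethers to the receptor.

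Nos1 averaged -5.50 ± 0.23 in blocked and -7.07 ± 0.27 in untreated cultures at 9 h (SD, n = 3 each). At 26 h it averaged -5.61 ± 0.12 in blocked and -6.43 ± 0.17 in untreated cultures. Its average change was 1.2 ± 0.12 log2 units (SE), limma adjusted p 3.75e-04. It was well above background on 11 of 12 arrays, and its change was 0.43 after normexp background correction (adjusted p 0.0477). Ptk2b changed by 0.47 ± 0.08 with adjusted p 0.00965 and Ppp3ca by 0.39 ± 0.06 with adjusted p 0.00622, and without replicate 3 of every group neither passed (adjusted p 0.0883 and 0.0975). The Ptk2b change was 1.04 at 9 h (limma adjusted p 6.57e-04) and -0.10 at 26 h (adjusted p 0.588), each across scan days. Dapk1 changed by 0.49 ± 0.12 with adjusted p 0.0457. Its call was lost in 15 of 23 other settings, among them leaving out any 1 array other than untreated 9 h replicate 1 or untreated 26 h replicate 1, with values between 0.43 and 0.58 and adjusted p up to 0.226.

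Of the 7 genes that supply or clear co-agonist none passed over both times in limma, and their median change was -0.18. The lowest was Slc7a10, the transporter Asc-1 that carries D-serine and glycine, at -0.43 ± 0.11 (SE, adjusted p 0.0553). With the replicate block it fell (adjusted p 0.00422), as did Phgdh, the first enzyme of serine synthesis, at -0.29 (adjusted p 0.0229). Other partners called with that block were Camk2b at 0.34 (adjusted p 0.0132) and the auxiliary subunit gene Neto1 at 0.32 (adjusted p 0.0347), both higher in the average. The transcription factor gene Nrf1 was called lower at -0.27 (adjusted p 0.0155). The Camk2b average joins opposite single-time changes in the main limma fit, 1.19 at 9 h (adjusted p 5.92e-04) and -0.51 at 26 h (adjusted p 0.0222). At either time its blocked and untreated arrays differ in scan day.

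**Figure D5:**
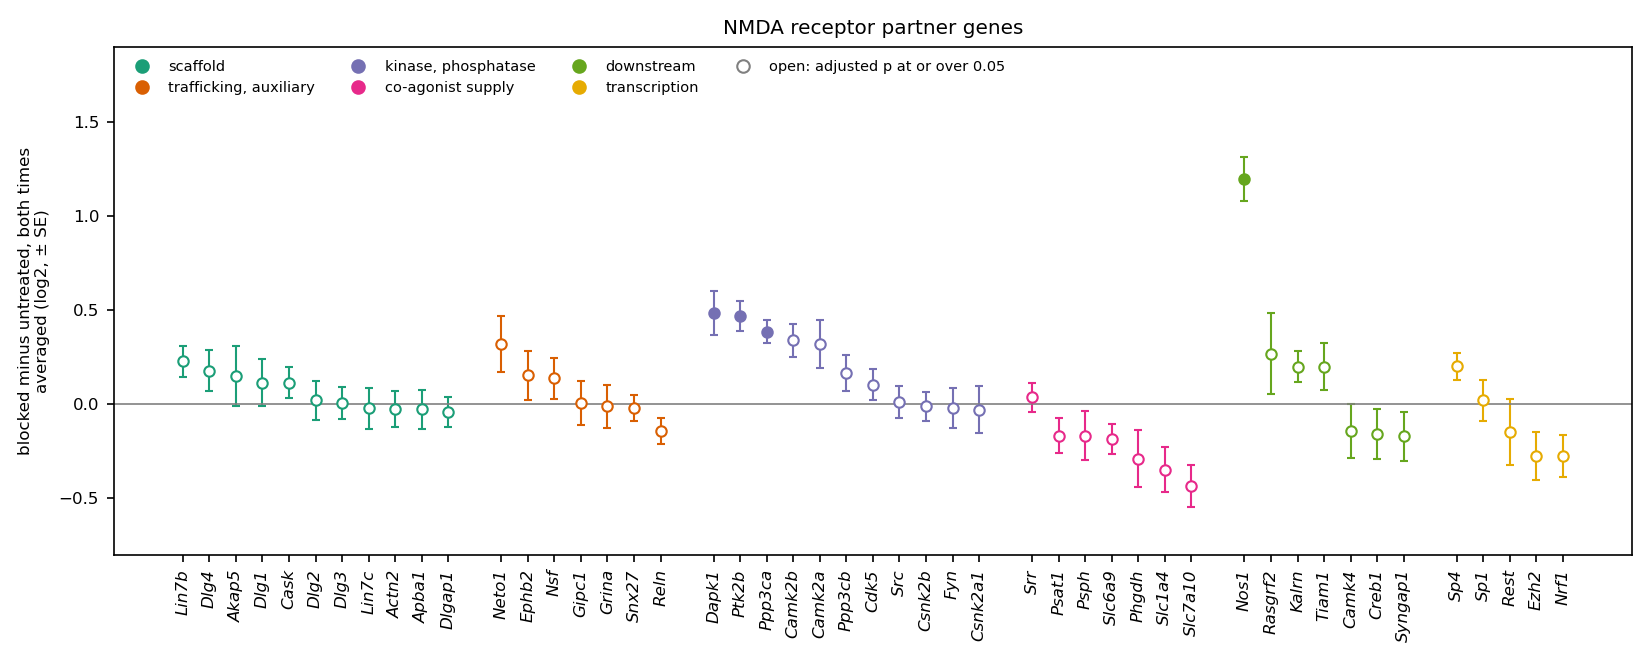
Blocked minus untreated change averaged over both times (y axis, log2 units, bars are SE of the limma fit) for the 48 tested partner genes of the NMDA receptor, grouped by role; filled points passed an adjusted p of 0.05 and open points did not. Nos1 stands highest at 1.2, and the co-agonist supply genes have a median of -0.18.

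At the single times, which differ in scan day between blocked and untreated arrays, 11 partners were higher and 2 lower at 9 h, against 11.4% and 9.64% of all genes. At 26 h 2 were higher and 5 lower, against 6.88% and 9.53%. For culture time, averaged over blocked and untreated cultures, 1 partner rose and 3 fell by 26 h, against 4.87% and 7.75% of all genes. Kalrn, a regulator of dendritic spines, rose by 0.38 ± 0.08 (SE, limma adjusted p 0.0138). Nrf1 fell by 0.94 ± 0.11 (adjusted p 9.04e-04), Slc6a9, the glial glycine transporter GlyT1, fell by 0.43 ± 0.08 (adjusted p 0.00842), and Reln, a secreted glycoprotein that acts on NMDA receptor composition, fell by 0.33 ± 0.07 (adjusted p 0.0129). The Slc6a9 and Reln averages join opposite changes. From 9 h to 26 h the mean Slc6a9 level went from -1.70 to -2.64 in blocked and from -2.02 to -1.94 in untreated cultures. Mean Reln went from -0.72 to -1.56 in blocked and from -1.09 to -0.91 in untreated cultures. Within blocked or untreated cultures the times differ in scan day. Without replicate 3 of every group, Kalrn, Slc6a9 and Reln missed the threshold (adjusted p 0.0992, 0.138 and 0.137). Slide position goes with time here too.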

How the data were processed

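On 12 single-colour Agilent rat arrays, mRNA was measured, 3 arrays for each of 4 groups of hippocampal cultures, each labelled from 200 ng of total RNA. The deposited scanner files hold spot intensity values from Agilent Feature Extraction 10.5.1.1, per the file headers, whose processed signal is already background-corrected. The array design names genome build rn4, and no coordinate of it was used. The deposited value table holds log2 values. Against the scanner values it ran in a straight line with a slope of 1.00 on every array and column medians of 7.57 to 7.75, so its scale and direction are those of the processed signal and its centring is not given in the sources used here.

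The log2 processed signal minus each array's 75th percentile over 42877 non-control spots was used, and 5671 spot values with outlier flags were left out after that scaling. Of 30367 probes, 18004 matched a RefSeq transcript (GRCr8 tables) and 12363 did not and were kept as unnamed targets. The 24034 probes well above background on every array of at least 1 group were kept, and the brightest kept probe stood for its gene. limma 3.58.1 in R 4.3.3 (lmFit, eBayes, one mean per group, Benjamini-Hochberg over 21207 genes or targets, threshold 0.05) gave all p-values, two-sided. It was tested on simulated data. The number of arrays limits the precision, with a median SE of 0.12 log2 units for the averaged effect. Same-numbered blocked and untreated arrays of one time deviated together (r 0.174 to 0.656), and all 12 arrays correlated best with their own number, so the fit with the replicate block is given where it changes a call. The labels name 3 independent cultures. In the main fit, p-values measure the spread between the arrays of a group, without pairing by replicate number. With the replicate or the slide as a block they measure the spread left after the block.

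Named genes were all members, up to 8 called partners in each balanced comparison, the activity genes and the 3 genes most like each member, of which 1 is not reported here. Members and lists were chosen with earlier results of these data known. Alternatives were background correction, scaling, the deposited values, the filter, outlier spots, the probe rule, replicate and slide blocks, each array left out and replicate 3 left out.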

Additional observations from a re-analysis of the deposited data

Results flagged for a closer look

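Grin1 and Grin2a, of the 7 subunit genes, had a blockade effect that differed between 26 h and 9 h by the limma test of the difference itself. The difference was -2.07 log2 units for Grin1 (SE 0.23, adjusted p 3.13e-04), with the blocked level 1.03 lower than untreated at 26 h and 1.05 higher at 9 h. For Grin2a it was -0.86 log2 units (SE 0.18, adjusted p 0.00539), with changes of -0.13 at 26 h and 0.73 at 9 h. This contrast is the same as that of scan day 1 against scan day 2, and the 3 spike-in probes measured without saturation and above background on all arrays were 4.55 to 4.92 log2 units higher on day 2, so a change of the effect with time and a change with the scan day cannot be told apart. In the same test 28.7% of all genes passed.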

How the results depend on the processing

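Each of the 35 results on the subunits was recomputed under up to 23 other settings. Of 784 comparisons, 755 kept the side of the threshold, 16 lost the call, 13 gained it and 0 turned round with a call on either side. The sign changed in 27, none of them called, among them the averaged effects of Grin1 and Grin2d. The replicate block brought Grin2a (0.30) and Grin2c (-0.42) past the threshold in the averaged blockade effect. The slide as a block (-0.42) and normexp background correction (-0.44) did so for Grin2c. The replicate block also brought Grin3a past it at 9 h, in the difference between times and for culture time, and changed no other call of a member. Leaving out single arrays gave averaged effects of -0.07 to 0.09 for Grin1, 0.25 to 0.35 for Grin2a, 0.04 to 0.21 for Grin2b, -0.50 to -0.32 for Grin2c, -0.03 to 0.05 for Grin2d, -0.03 to 0.18 for Grin3a and 0.30 to 0.49 for Grin3b. Genes past the threshold numbered 944 for the averaged blockade effect, 4467 at 9 h, 3478 at 26 h, 6080 for the difference and 2677 for culture time. With the replicate block they numbered 2803, 7615, 6764, 9430 and 5679. With the slide as a block they numbered 2318 for the averaged effect and 5209 for culture time, and the other contrasts cannot be estimated. Without replicate 3 of every group, which leaves fewer arrays, they numbered 360, 1739, 479, 3085 and 367. Leaving out single arrays gave 557 to 985, 2774 to 4636, 1344 to 4175, 4707 to 6181 and 1755 to 2542. The 22 results on partners, markers and activity genes kept their direction in all 506 comparisons and lost the call in 78. Replicate 3 exceeded the mean of replicates 1 and 2 in the markers Col1a1, Col1a2, Igf2, Ptgds and Ttr, by 2.11 to 6.72 log2 units. Dcn and Pecam1, of the same list of meningeal, fibroblast and vascular markers, went the other way (-0.20 and -0.31). The cause of the shifts in the calls was not tested. Signals as low as that of Grin3b move with the background correction.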
